A study of Mus musculus with 2 samples.

Results

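The genes described here make up the lysosome, the endocytic route that feeds it and the V-ATPase, the proton pump that acidifies it. They are 32 genes chosen by symbol, and all 32 occur among the 19626 genes of the count table. By role they comprise 10 lysosomal hydrolases and their activators, 6 proteins of the lysosomal membrane and of cholesterol export, 6 genes of clathrin-mediated endocytosis and endosome maturation, the transcription factor gene Tfeb, and 9 subunits of the V-ATPase.

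The cells were dissociated from the growing end of the lower incisors, around the cervical loop, in 1 Memo1;K14CRE mutant mouse and 1 control mouse, both at postnatal day 20, with epithelium and mesenchyme in 1 suspension. K14-driven Cre acts in epithelium, the dental epithelium included, and the labels give neither the deleted part of Memo1 nor the alleles of the control. Each mouse gave 1 droplet library of 3' ends (10x Genomics), for which the labels state about 10000 cells were loaded. The mutant library held 13820 cells and 120862385 UMIs, the counted molecules, with a median of 6798 per cell, and the control library 9708 cells and 79518656 UMIs with a median of 2643. There were 139 cell barcodes present in both libraries. The depositors had assigned 2303 mutant and 2981 control cells to the ameloblast lineage and had numbered its clusters 0 to 8, apart from a numbering of all cells. In lineage cells the order of depth was reversed, with a median of 2174 UMIs per mutant and 5364 per control cell. Memo1 itself gave 17.7 CPM in mutant and 20.3 CPM in control lineage cells. This level does not check the deletion, because the deleted part is not given and molecules from outside it may be counted too.

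A level below is the UMIs of a gene summed over the cells of a cluster in 1 library, as counts per 1000000 UMIs of the same cells (CPM), and a ratio is mutant over control. Intervals are 95% intervals and cover counting error only. With 1 mouse and 1 library a group there was no measure of the spread between mice and no test, so "higher" and "lower" describe these 2 libraries. A gene was measured in a cluster where the mean of both levels reached 10 CPM and both libraries together held 20 counts, and it was called higher or lower where the ratio passed 1.5-fold and its interval excluded 1. Clusters with at least 50 cells in each library were compared, which left 8 lineage clusters and 18 clusters outside the lineage. Lineage cluster 8 held 91 mutant and 0 control cells and was not compared. In any cluster, fewer cells of a kind and less RNA per cell cannot be told apart.

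Lysosomes are acidic organelles that break down protein, lipid and sugar chains taken up by endocytosis or delivered by autophagy. The V-ATPase drives protons across membranes. Its V1 sector, in the cytosol, hydrolyses ATP, and its V0 sector, in the membrane, carries the protons. Ameloblasts first secrete enamel matrix proteins and later, in maturation, resorb the fragments and move ions while the mineral hardens, and maturation ameloblasts are known for a ruffled apical border with V-ATPase and for many lysosomes. TFEB is a transcription factor that activates many lysosomal genes by binding a palindromic motif near their start sites.

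The 10 hydrolases and activators had their highest level of the 26 clusters in all-cells cluster 4 in both libraries, 10 of 10 in each. That cluster is macrophage or monocyte-like and led by Gdf15, Ccl2, Ccl7 and C1qc. Ctsd, the aspartic protease cathepsin D, stood at 1644 CPM in mutant and 1557 CPM in control cells of that cluster. Lgmn, the asparagine-specific protease legumain, stood at 1383 CPM in mutant and 1415 CPM in control cells, and Psap, the precursor of the saposins that activate sphingolipid hydrolases, at 1561 and 2025 CPM in the same order. Grn, which encodes progranulin, reached 1008 CPM in mutant and 978 CPM in control cells. The glycosidase genes Hexa, Gusb and Glb1, the lipase gene Lipa, the carboxypeptidase gene Ctsa and the peptidase gene Tpp1 had the same leading cluster. At the low end, all-cells cluster 18, which is erythroid-like, held the 10 genes at a summed 108 CPM in mutant and 73.4 CPM in control cells, against 7390 and 7766 CPM in cluster 4. Within the lineage the 10 genes summed to between 472 and 1215 CPM in mutant clusters and between 450 and 949 CPM in control clusters.

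The 6 genes of the membrane and of cholesterol export did not share 1 leading cluster. Lamp1, a major glycoprotein of the lysosomal membrane, stood highest in macrophage-like cluster 4, at 1038 CPM in mutant and 1121 CPM in control cells. Lamp2, its relative with a role in autophagy, stood highest in lineage cluster 2, at 493 CPM in mutant and 419 CPM in control cells. Cd63, a tetraspanin of late endosomes, reached 1452 CPM in mutant and 1625 CPM in control cells of all-cells cluster 3, which Tnc and Fmod lead. Cd63 was highest there in the mutant library, but in the control library it was highest in all-cells cluster 17, at 1830 CPM. In endothelium-like cluster 8 it stood at 62.5 CPM in mutant and 41.6 CPM in control cells. Npc2, a soluble protein that hands cholesterol to Npc1 for export from the lysosome, had its highest levels among ameloblasts. It stood at 1310.4 CPM in mutant and 1098 CPM in control cells of secretory ameloblast-like cluster 3, at 1119 CPM in mutant and 1174 CPM in control cells of maturation ameloblast-like cluster 7, and at 1054 CPM in mutant and 1056 CPM in control cells of cluster 6, which Dspp and Fxyd4 lead. Its median over the 26 clusters was 276 CPM in the mutant and 272 CPM in the control library. Scarb2, which carries a hydrolase to lysosomes, was low in lineage cluster 3, at 3.17 CPM in mutant and 2.60 CPM in control cells. Like Lamp1, Npc1 and Scarb2 were highest in macrophage-like cluster 4 in both libraries.

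Of the genes of uptake and endosome maturation, Ap2m1, a subunit of the clathrin adaptor of the plasma membrane, had a median over the 26 clusters of 143 CPM in the mutant and 136 CPM in the control library, and a highest level of 212 and 219 CPM in the same order. The clathrin chain genes Clta and Cltc led in the macrophage-like clusters 1 and 4. Clta reached 1213 CPM in mutant and 1161 CPM in control cells of cluster 1. Rab5a and Rab7, whose GTPases mark early and late endosomes, had medians over clusters of 66.9 and 122 CPM in the mutant and 57.7 and 119 CPM in the control library. Lrp1, a large endocytic receptor, was a mesenchymal gene here. It stood at 393 CPM in mutant and 359 CPM in control cells of all-cells cluster 7, which is mesenchyme or fibroblast-like, and at 10.8 CPM in mutant and 4.88 CPM in control cells of endothelium-like cluster 8. Tfeb was sparse, with at most 22.2 CPM in any mutant and 17.8 CPM in any control cluster.

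**Figure D1:**
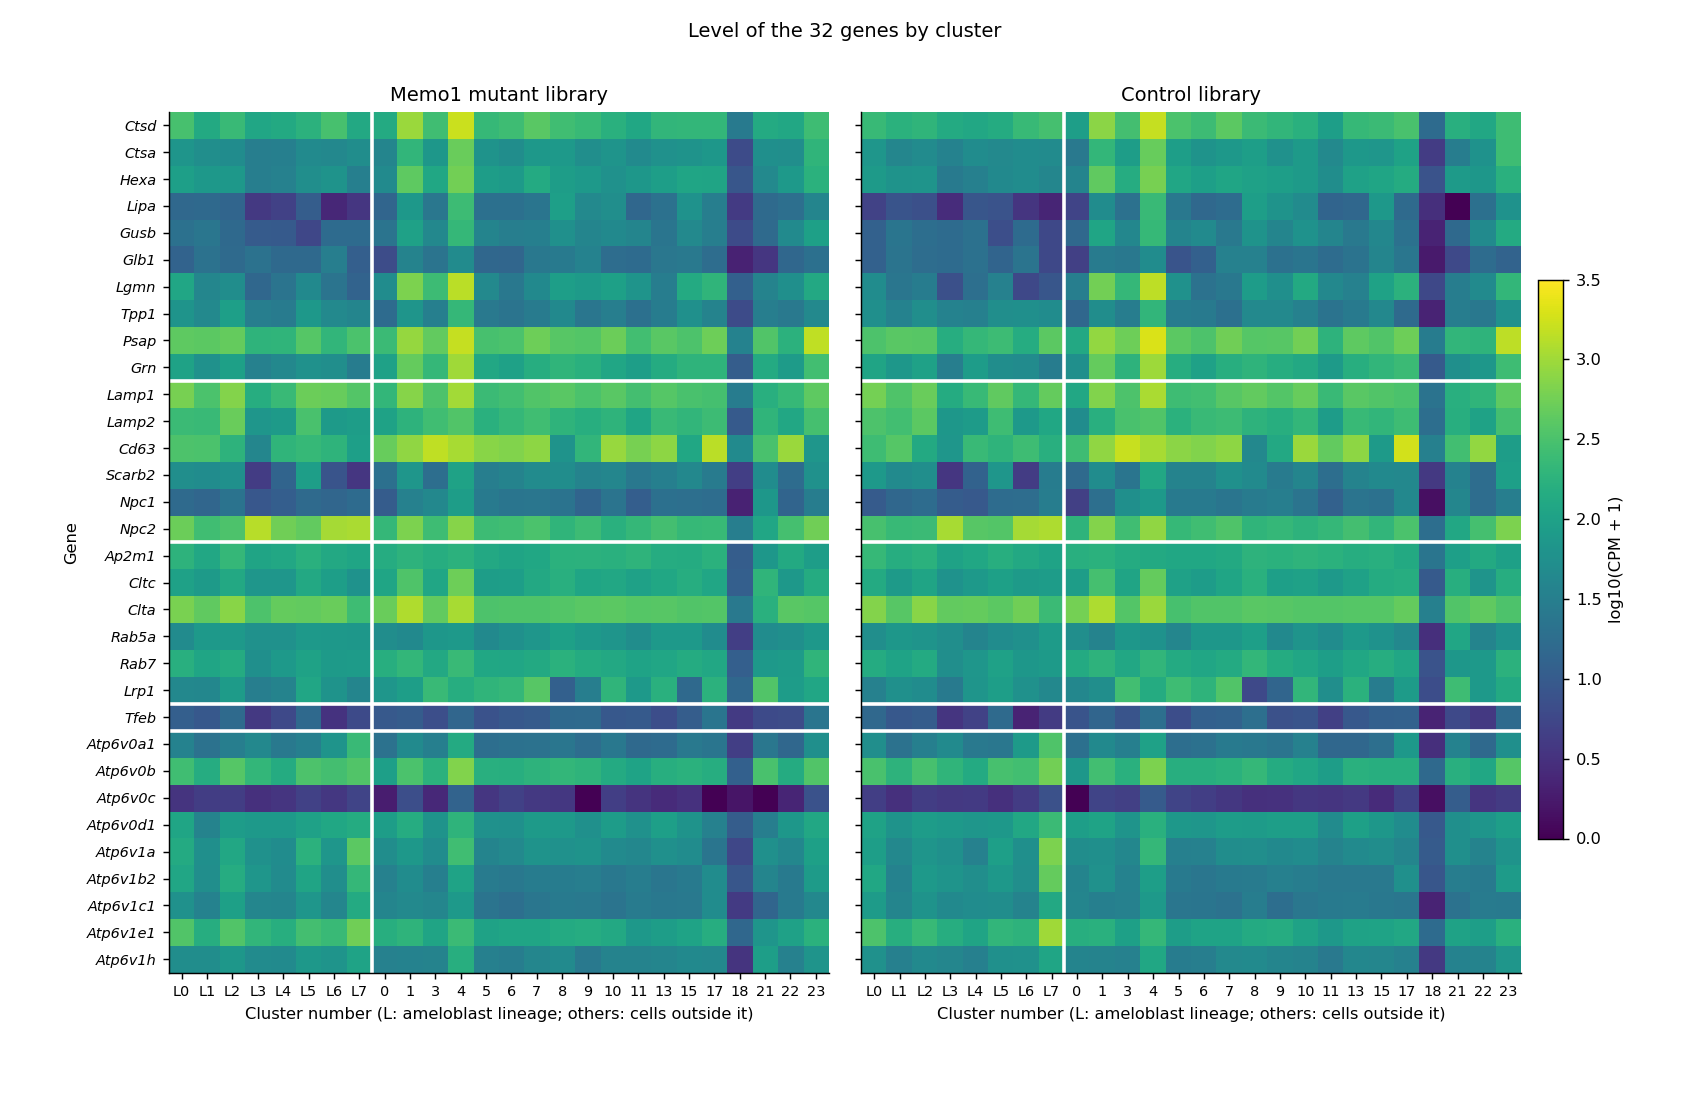
Level of each of the 32 genes, as log10(CPM + 1), in 26 clusters of the mutant library (left) and the control library (right); rows are grouped by role, and L marks ameloblast lineage clusters. The hydrolases at the top are brightest in cluster 4, Npc2 in L3, L6 and L7, and most pump subunits at the bottom in L7, where 5 of 9 in the mutant and 6 of 9 in the control library have their highest level.

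The pump subunits had another pattern. Lineage cluster 7, whose leading genes are Odam, Amtn and Klk4 and which is maturation ameloblast-like, held the highest summed level of the 9 subunits, at 2156 CPM in mutant and 3510.3 CPM in control cells. Macrophage-like cluster 4 came next, at 1879.95 CPM in mutant and 1634 CPM in control cells. Secretory ameloblast-like cluster 3 stood at 741 CPM in mutant and 674 CPM in control cells, and the clusters outside the lineage other than 1, 4 and 23 lay between 56.2 and 629.7 CPM in the mutant and between 62.2 and 612 CPM in the control library. Of the single subunits, 5 of 9 in the mutant and 6 of 9 in the control library had their highest level in cluster 7. Atp6v1a, the catalytic subunit of V1, was among them in both libraries. Its level in cluster 7 was 418 CPM (382 to 457) in mutant and 649 CPM (616 to 682) in control cells, whereas its next cluster, macrophage-like cluster 4, had 269 and 212 CPM in the same order. Atp6v0c, the proton-carrying ring subunit, was nearly absent from the table, with at most 12.1 CPM in any mutant and 9.88 CPM in any control cluster. It has 2 annotated pseudogenes, so its molecules may be lost to or shared with them, and its level is uncertain.

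Promoter windows from 250 bases before to 50 bases after a start site (RefSeq, GRCm38.p6) were at hand for 28 of the 32 genes. The palindrome CACGTG, which lies at the centre of the TFEB motif and reads the same on both strands, occurred in a window of 10 of the 28, or 35.7%, against 8.09% of all 27025 genes with a window. The longer palindrome TCACGTGA, which contains it, occurred in 5 of the 28, or 17.9%, against 1.12% of all genes. The 5 were Atp6v1a, Atp6v0d1, Ctsd, Ctsa and Rab5a, and the shorter form alone was found for Lamp1, Glb1, Lgmn, Ap2m1 and Atp6v0b. The stretches below run from 160 bases before to 20 bases after the start and were picked to show the palindrome in 3 pump subunits and cathepsin D, all called lower in mutant cluster 7, and in Lamp1, which has 4 copies. Of the other genes called lower there, Atp6v1e1, Cd63 and Scarb2 held 0 copies in their windows, and Atp6v1b2 and Npc1 had no window. Lamp1, Ctsa, Rab5a and Ap2m1 held the palindrome, were measured there and were not called lower. Glb1 and Lgmn held it too but were not measured there. Each is written 5′ to 3′ on the strand of the gene, with CACGTG in capitals, at chr16:44139240-44139419, minus strand (Atp6v1a), chr8:105566045-105566224, minus strand (Atp6v0d1), chr4:117887310-117887489, minus strand (Atp6v0b), chr7:142387808-142387987, minus strand (Ctsd) and chr8:13159001-13159180, plus strand (Lamp1).
Atp6v1a: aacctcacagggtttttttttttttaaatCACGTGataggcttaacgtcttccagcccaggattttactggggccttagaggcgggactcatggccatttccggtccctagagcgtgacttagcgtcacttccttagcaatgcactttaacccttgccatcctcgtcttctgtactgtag
Atp6v0d1: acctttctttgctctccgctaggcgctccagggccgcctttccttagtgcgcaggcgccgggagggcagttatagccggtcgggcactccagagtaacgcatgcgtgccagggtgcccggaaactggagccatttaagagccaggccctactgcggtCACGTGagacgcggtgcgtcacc
Atp6v0b: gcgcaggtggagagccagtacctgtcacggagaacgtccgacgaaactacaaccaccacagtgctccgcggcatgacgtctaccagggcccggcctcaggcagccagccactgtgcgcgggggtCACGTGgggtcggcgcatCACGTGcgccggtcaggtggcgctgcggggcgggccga
Ctsd: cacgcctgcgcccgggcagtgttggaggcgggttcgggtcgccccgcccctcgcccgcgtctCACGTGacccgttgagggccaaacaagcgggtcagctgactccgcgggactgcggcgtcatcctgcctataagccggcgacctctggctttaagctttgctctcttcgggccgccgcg
Lamp1: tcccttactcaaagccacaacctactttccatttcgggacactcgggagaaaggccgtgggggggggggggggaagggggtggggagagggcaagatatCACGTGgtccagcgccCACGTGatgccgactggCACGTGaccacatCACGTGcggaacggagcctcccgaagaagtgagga
A match describes the letters of the window, and a link between matches and the counts was not tested.

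Of the other genes named next, Atp6v1b2 lies at chr8:69088646-69113711, Atp6v1e1 at chr6:120794305-120822793, Scarb2 at chr5:92441314-92506833 and Gusb at chr5:129989011-130003049 (GRCm38). Counts of Cd63, Rab5a and Rab7, with 1 annotated pseudogene each, and of Ctsd and Glb1, which overlap a gene on the same strand, are less certain than the rest.

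In lineage cluster 7 the pump and part of the lysosome stood lower in the mutant library. The cluster held 78 mutant and 187 control cells with 1162618 and 2315741 UMIs in the same order. Of the 32 genes 27 were measured there. In the mutant 9 were called lower, where 14.7% of all 6432 measured genes were, and 1 was called higher, where 10.6% were. The median log2 ratio was -0.36 over the 27 and -0.04 over all measured genes.

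The 9 subunits summed gave a ratio of 0.614 (0.587 to 0.642). Atp6v1a, with 418 CPM in mutant and 649 CPM in control cells, had a ratio of 0.644 (0.581 to 0.714). Atp6v1b2, the V1 subunit that shares nucleotide binding with it, had 212 CPM in mutant and 462 CPM in control cells and a ratio of 0.459 (0.398 to 0.528). Both belong to the ATP-hydrolysing head. Atp6v1e1, a subunit of the stalk that holds the head in place, had 545 CPM in mutant and 992 CPM in control cells, a ratio of 0.5495 (0.502 to 0.6003). In the V0 sector, Atp6v0b of the ring had 355 CPM in mutant and 576 CPM in control cells, a ratio of 0.616 (0.5505 to 0.689). Atp6v0d1, which links the ring to the central stalk, had 141 CPM in mutant and 244 CPM in control cells, a ratio of 0.579 (0.484 to 0.690). These 5 subunits were called lower. Atp6v0a1, which forms the proton path with the ring, had 236 CPM in mutant and 339 CPM in control cells and stayed short of the threshold, at 0.694 (0.603 to 0.798). Atp6v1c1 had 137 CPM in mutant and 129.5 CPM in control cells, a ratio of 1.06 (0.865 to 1.28). Atp6v1h had 108 CPM in mutant and 111 CPM in control cells, a ratio of 0.965 (0.773 to 1.20). Both are V1 subunits known for their part in the regulated joining of V1 and V0, and neither was called.

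Among the lysosomal genes of cluster 7, Ctsd had 127 CPM in mutant and 288 CPM in control cells, a ratio of 0.441 (0.367 to 0.528). Cd63 had 92.9 CPM in mutant and 163 CPM in control cells, a ratio of 0.571 (0.456 to 0.708). Npc1, the membrane protein of cholesterol export, had 15.5 CPM in mutant and 29.8 CPM in control cells, a ratio of 0.520 (0.291 to 0.883). Scarb2 was sparse. It gave 3 counts in 3 of 78 mutant cells, or 2.58 CPM, and 67 counts in 38 of 187 control cells, or 28.9 CPM, for a ratio of 0.0892 (0.0179 to 0.272), which was 0.382 as a mean of CPM per cell and 0 with each cell thinned to 1000 UMIs. Gusb, which encodes beta-glucuronidase, was the 1 member called higher, with 18 counts or 15.5 CPM in mutant and 11 counts or 4.75 CPM in control cells and a ratio of 3.26 (1.46 to 7.64). As a mean of CPM per cell the Gusb ratio was 1.04 and the Npc1 ratio 1.07, and with each cell thinned to 1000 UMIs the Cd63 ratio was 1.08, against 0.373 without the 5% deepest cells. Lamp1, Lamp2 and Psap had ratios of 0.777, 0.741 and 0.783 with intervals below 1, and were not called. The 6 genes of uptake and endosome maturation were measured and 0 were called, with Cltc the lowest at 0.704 (0.528 to 0.929). Their summed level was 624 CPM in mutant and 634 CPM in control cells, a ratio of 0.984 (0.899 to 1.08), and Npc2 was likewise near 1, at 0.953 (0.891 to 1.02).

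**Figure D2:**
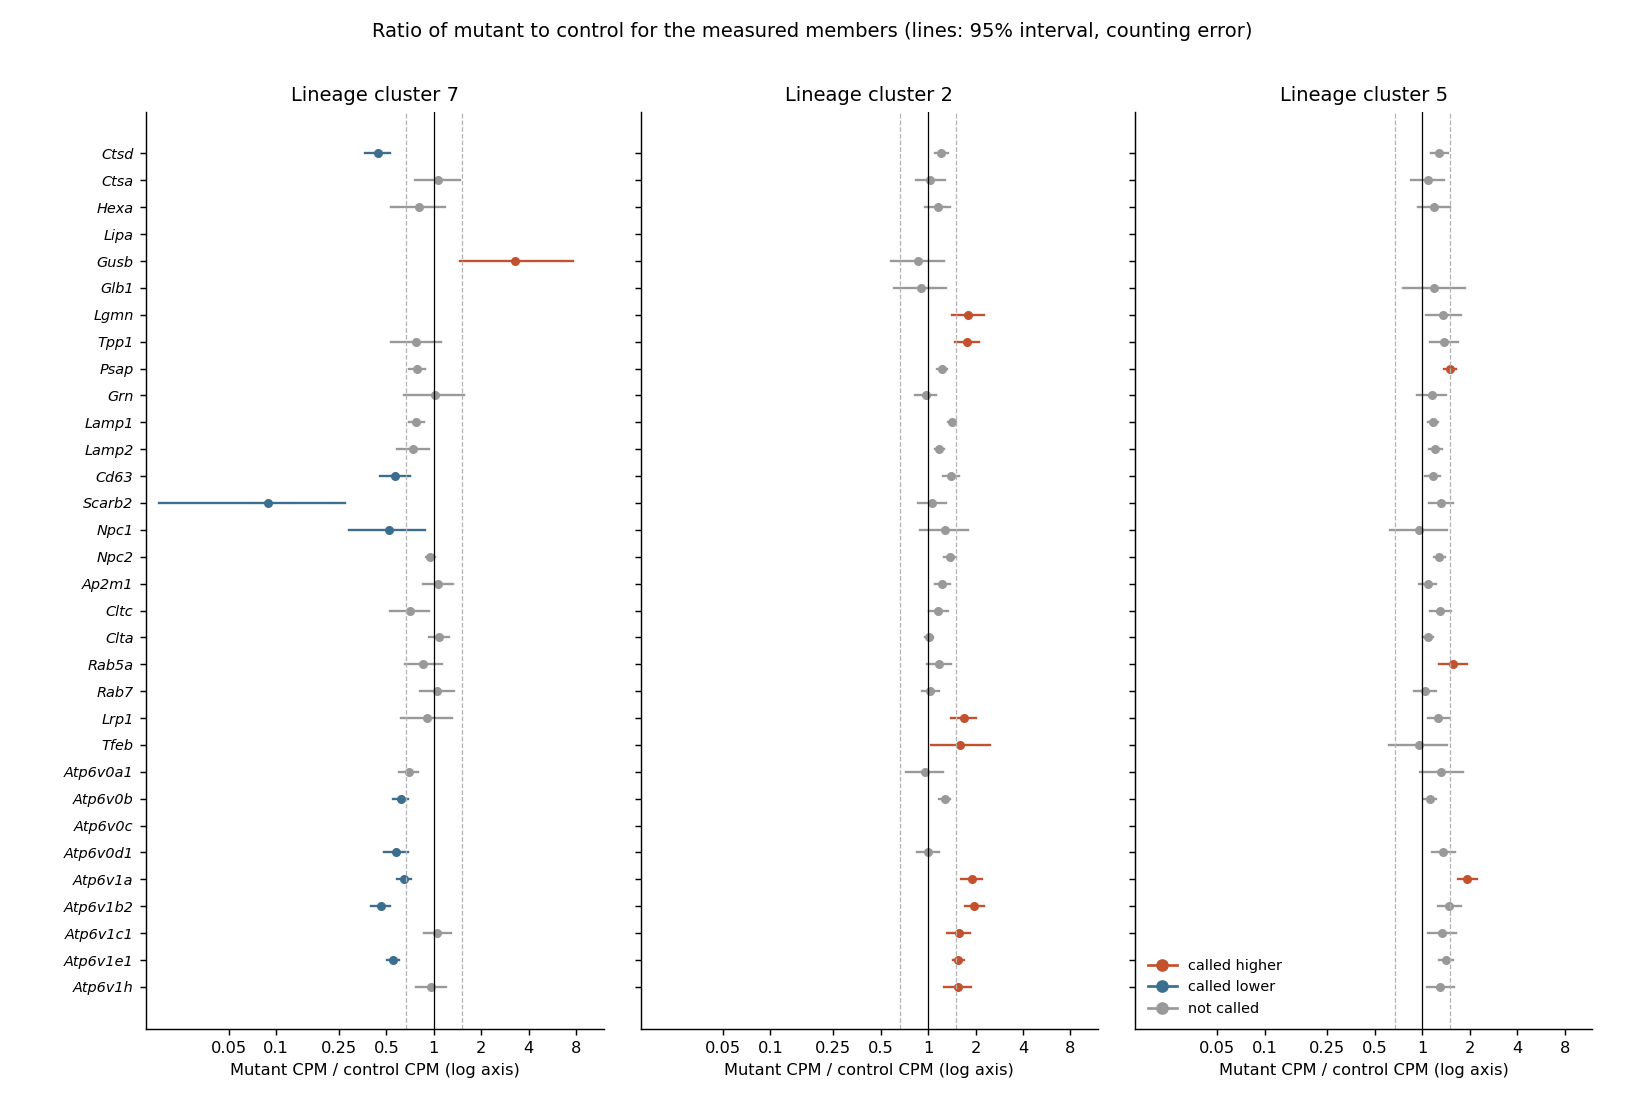
Ratio of mutant to control CPM on a log axis for the members measured in lineage clusters 7, 2 and 5, with 95% intervals for counting error and dashed lines at the 1.5-fold threshold. In cluster 7, 9 members lie below the threshold and 1 above it, whereas in clusters 2 and 5 the called members, 9 and 3, are all above it; colour marks the call.

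Other measures moved with these values. The 8 maturation ameloblast markers summed to 6048 CPM in mutant and 38077 CPM in control cells of cluster 7, and Odam alone to 399 and 15808 CPM in the same order. Odam had the lowest log2 ratio of the 10 leading genes of the cluster, at -5.31. Amtn stood at -1.96 and Rcan1 at 0.03, and Car2 and Csn3 went the other way, at 2.37 and 4.92. The 4 secretory ameloblast markers summed to 310879 CPM in mutant and 218571 CPM in control cells. Stratum intermedium or papillary layer markers summed to 138 CPM in mutant and 798 CPM in control cells, dental epithelium markers to 1857 and 3831 CPM in the same order, and mesenchyme or fibroblast markers to 224 and 122 CPM. The genes that lead the cluster thus differ between the libraries, and the part of the cells' kind in the pump ratios was not tested. Macrophage or monocyte markers, 10 genes with 0 of them undetected in mutant and 1 in control cells, summed to 136 CPM in mutant and 91.98 CPM in control cells, against 33014 and 36874 CPM in macrophage-like cluster 4. Osteoclasts also carry much V-ATPase, and their 7 markers summed to 9.46 CPM in mutant and 6.91 CPM in control cells, with Atp6v0d2, the pump subunit of osteoclasts, at 0 counts in both libraries. Without the mutant cell that held the most Odam, the same 9 genes were called lower and Gusb higher, and the summed pump ratio was 0.604 (0.576 to 0.632).

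**Figure D3:**
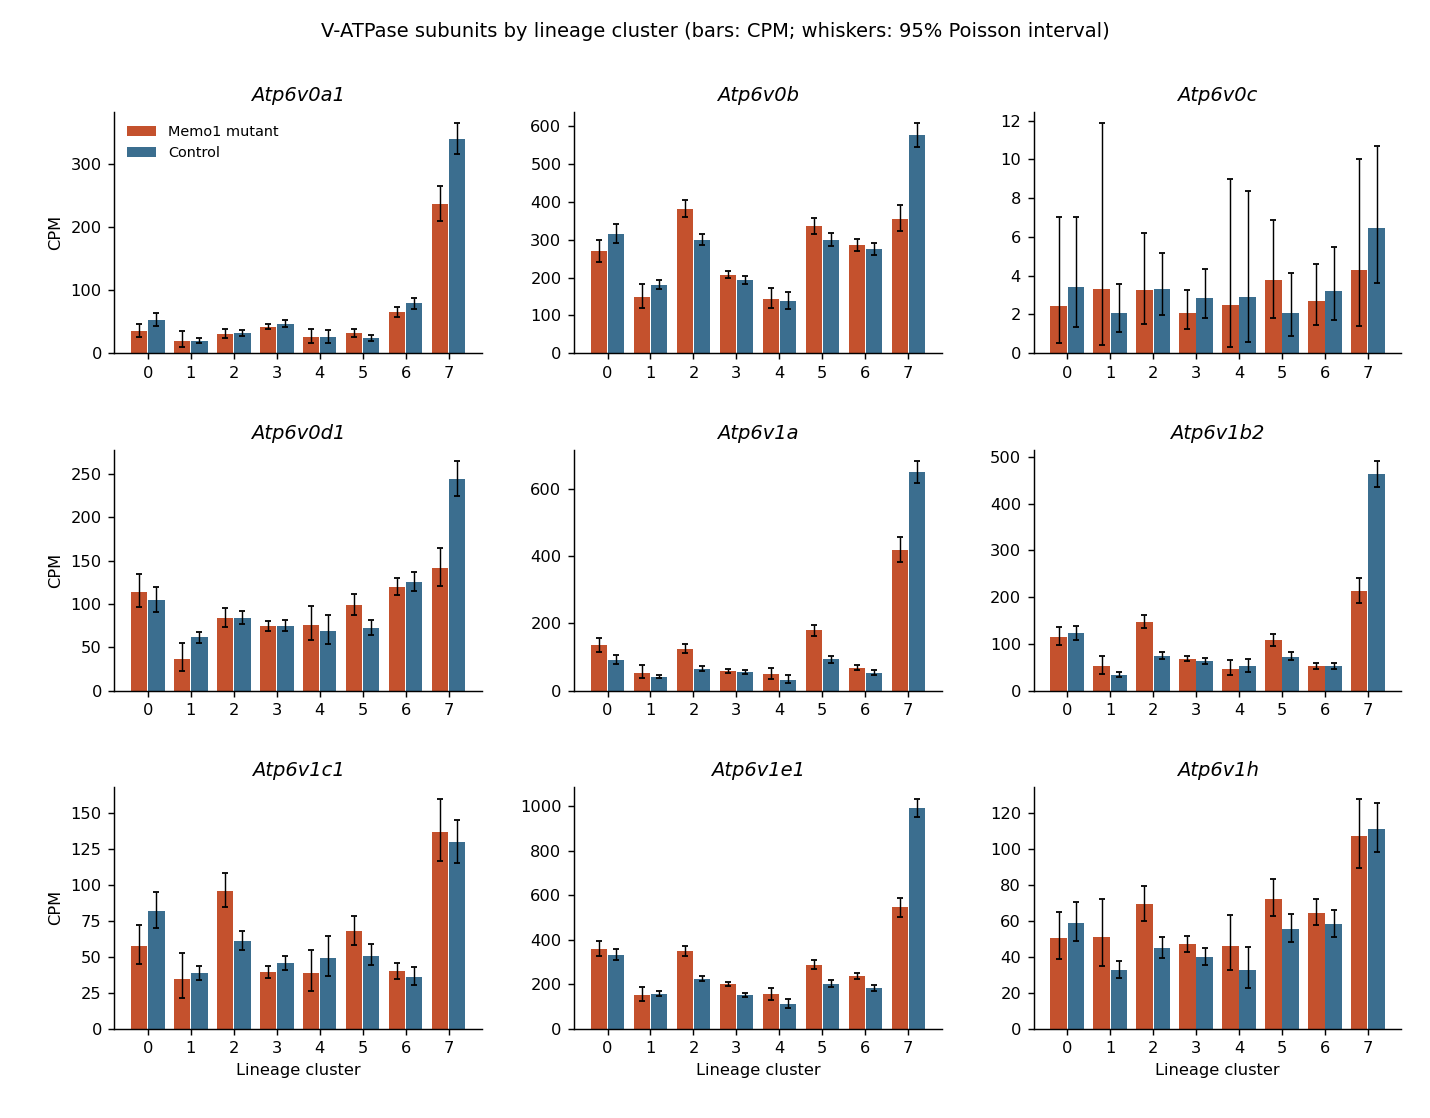
CPM of each of the 9 V-ATPase subunits in the 8 compared lineage clusters, mutant bars left of control bars, with 95% Poisson intervals as whiskers. Cluster 7 has the tallest bars for every subunit except Atp6v0b in the mutant, and the control bar of cluster 7 exceeds the mutant bar for all but Atp6v1c1; the intervals of Atp6v0c, Atp6v1c1 and Atp6v1h overlap there.

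Single cells gave the same order as the sums. Among cells with at least 1000 UMIs, the 9 subunits took a median of 19.99 per 10000 UMIs in 58 mutant cells of cluster 7, with quartiles of 12.1 and 29.8, and a median of 36.0 in 146 control cells, with quartiles of 22.8 and 44.0. The cells of both libraries overlapped over most of their range, up to 51.2 in the mutant and 72.6 in the control library. Left out as shallower were 20 mutant and 41 control cells. Of the cells kept, 2 mutant and 2 control cells had no pump count. In macrophage-like cluster 4 the median was 18.7 in 987 mutant cells and 16.1 in 491 control cells, and in secretory ameloblast-like cluster 3 it was 7.28 in mutant and 6.67 in control cells.

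**Figure D4:**
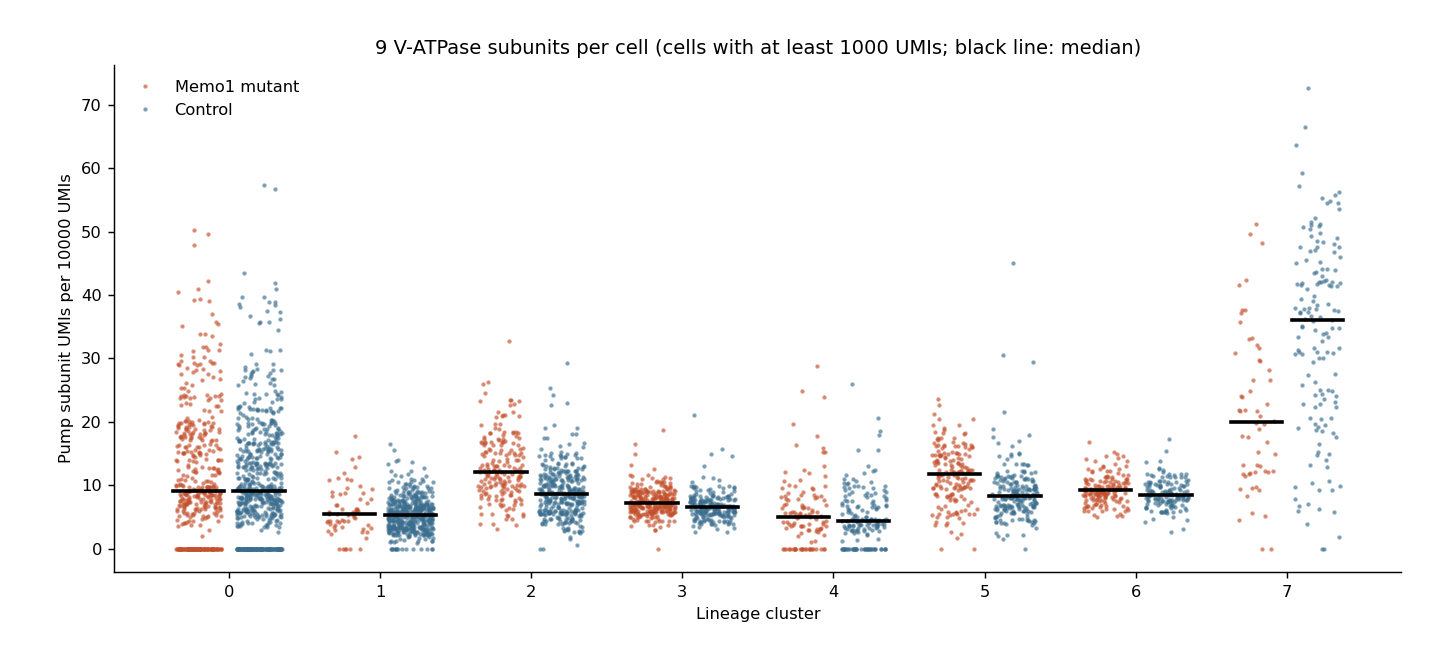
UMIs of the 9 V-ATPase subunits per 10000 UMIs in each cell with at least 1000 UMIs, by lineage cluster, mutant left of control, with the median as a black line. Medians lie at 19.99 in mutant and 36.0 in control cells of cluster 7, and at 12.2 in mutant and 8.63 in control cells of cluster 2.

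Lineage cluster 2 showed the opposite direction. It is an unnamed epithelial cluster led by Pi15, Slc12a2 and Igfbp2, with 190 mutant and 340 control cells. Of the 32 genes 30 were measured, all but Lipa and Atp6v0c, and 9 were called higher in the mutant, where 14% of all 8347 measured genes were. Called lower were 0, where 4.48% were. The median log2 ratio was 0.30 over the 30 and 0.15 over all measured genes.

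The pump accounted for 5 of the 9. The 9 subunits summed to 1288 CPM in mutant and 892 CPM in control cells of cluster 2, a ratio of 1.44 (1.38 to 1.51). Atp6v1a had 125 CPM in mutant and 65.9 CPM in control cells, a ratio of 1.89 (1.63 to 2.20) that was 3.19 with cells thinned to 1000 UMIs, and Atp6v1b2 had 148 CPM in mutant and 75.4 CPM in control cells, a ratio of 1.96 (1.71 to 2.25). Atp6v1c1, Atp6v1e1 and Atp6v1h had ratios of 1.56, 1.56 and 1.54. All 5 belong to V1, and the V0 members were not called, with Atp6v0a1 at 0.958, Atp6v0b at 1.27, Atp6v0d1 at 0.997 and Atp6v0c not measured. The other 4 were Lgmn at 1.79 (1.42 to 2.27), Tpp1 at 1.77 (1.49 to 2.10), Lrp1 at 1.68 (1.40 to 2.01) and Tfeb at 1.60 (1.04 to 2.45). Tfeb rested on 42 mutant and 52 control counts, and with cells thinned to 1000 UMIs its ratio was 0.358 and that of Atp6v1h 0.954. Under stricter limits on cells the Tfeb ratio was 3.57. Macrophage markers in cluster 2 summed to 216 CPM in mutant and 92.6 CPM in control cells. Outer enamel epithelium or stellate reticulum markers summed to 706 CPM in mutant and 2057 CPM in control cells, and erythroid markers to 5495 and 1308 CPM in the same order. Their part in these ratios was not tested. With TMM or median-of-ratios scaling in place of the cluster total, every ratio in cluster 2 moved by -0.21 or -0.19 on the log2 scale. Under either, 4 members were called higher, namely Atp6v1a, Atp6v1b2, Lgmn and Tpp1. Atp6v1c1, Atp6v1e1 and Atp6v1h were then not called, so the number of V1 calls depends on the scaling. Across the alternatives the summed pump ratio of cluster 2 ran from 1.25 to 1.64.

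Lineage cluster 5 is stratum intermedium or papillary layer-like, led by Jph4, Krt73 and Enpp2, and held 174 mutant and 211 control cells. Of 29 measured members 3 were called higher, where 15.6% of all 8132 measured genes were, and 0 lower, where 1.81% were. Atp6v1a had 179 CPM in mutant and 93.2 CPM in control cells, a ratio of 1.92 (1.67 to 2.21). Rab5a had 76.1 CPM in mutant and 48.9 CPM in control cells, a ratio of 1.56 (1.27 to 1.91), and Psap had 380.2 and 253 CPM in the same order, a ratio of 1.51 (1.38 to 1.65). The summed pump ratio was 1.36 (1.29 to 1.42). TMM and median-of-ratios scaling moved every ratio of cluster 5 by -0.26 and -0.27 on the log2 scale, left 1 member called higher under either and put the summed pump ratio at 1.13 and 1.12. The macrophage markers there summed to 125 CPM in mutant and 120.4 CPM in control cells.

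Over all lineage cells the summed pump level was nearly equal in both libraries. Its 9 subunits summed to 969 CPM in mutant and 969 CPM in control cells, a ratio of 1.00 (0.983 to 1.02). Of 29 measured members, Lgmn was the 1 called higher, at 30.3 CPM in mutant and 19.3 CPM in control cells, a ratio of 1.58 (1.41 to 1.76), where 4.14% of all 7661 measured genes were. Called lower were 0, where 4.96% were. Behind that level lay different clusters in the 2 libraries. Cluster 7 held 10.7% of the pump counts of the mutant and 25.98% of those of the control lineage, with 4.80% and 7.17% of all lineage UMIs in the same order. For Atp6v1a these shares were 19.6% in the mutant and 45.02% in the control lineage. Secretory ameloblast-like cluster 3 held 28.9% of the pump counts of the mutant and 16.5% of those of the control lineage, with 37.8% and 23.8% of all lineage UMIs in the same order. Without cluster 7 the summed pump ratio of the lineage was 1.18 (1.15 to 1.20), that of Atp6v1a 1.41 (1.32 to 1.504), and that of the 10 hydrolases and activators 1.06 (1.04 to 1.08).

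**Figure D5:**
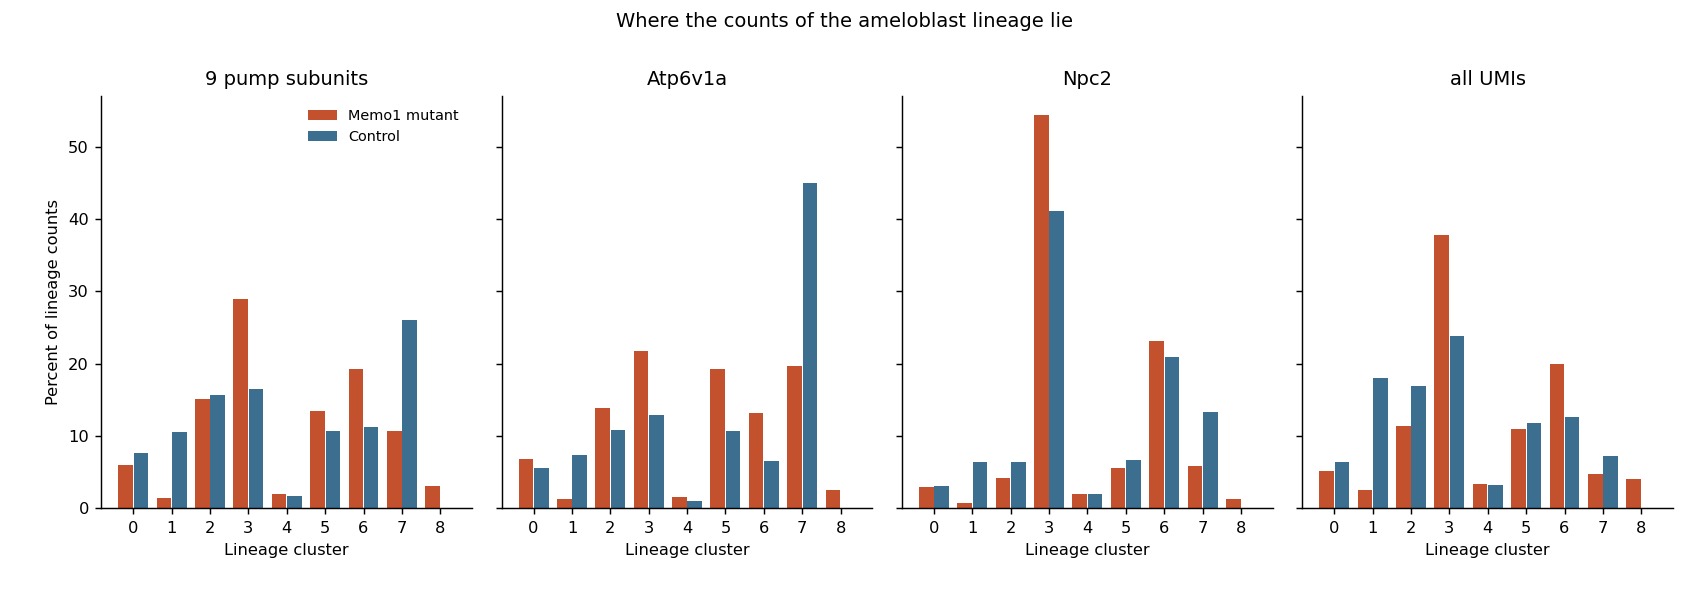
Percent of the counts of all ameloblast lineage cells that lie in each lineage cluster, for the 9 pump subunits, Atp6v1a, Npc2 and all UMIs, mutant bars left of control bars. Cluster 7 holds 10.7% of mutant and 25.98% of control pump counts, and 19.6% of mutant and 45.02% of control Atp6v1a counts; cluster 8 has no control cells.

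The other 5 lineage clusters held 8 member calls in the higher and 6 in the lower direction. Of all measured genes, between 3.06% and 12.3% were called higher and between 2% and 6.29% lower, depending on the cluster. The number of measured pairs of a member and a cluster is not given here, so these counts do not set the members apart from other genes. Lgmn was higher in 3 of them, in addition to cluster 2. In cluster 0, a shallow cluster led by Pmch and Gpx3, it had 116 CPM in mutant and 50.1 CPM in control cells, a ratio of 2.31 (1.78 to 3.01), which was 1.39 under stricter limits on cells. In cluster 1, led by Tagln and H19, it had 39.4 CPM in mutant and 22.6 CPM in control cells, a ratio of 1.74 (1.08 to 2.71), which was 0.737 with cells thinned to 1000 UMIs. In cluster 6 it had 21.1 CPM in mutant and 4.67 CPM in control cells, a ratio of 4.51 (2.75 to 7.80), which was 2.57 as a mean of CPM per cell. Macrophage markers moved with it in clusters 0 and 6. They summed to 1264 CPM in mutant and 649 CPM in control cells of cluster 0, and to 265 CPM in mutant and 88.0 CPM in control cells of cluster 6. In cluster 1 they summed to 140 CPM in mutant and 126 CPM in control cells, a ratio of 1.11 (0.874 to 1.39). In cluster 3, where Lgmn was not called, they summed to 226 CPM in mutant and 95.7 CPM in control cells. Other marker sums differed as well. Mesenchyme or fibroblast markers summed to 1265 CPM in mutant and 681 CPM in control cells of cluster 0. In cluster 6 they summed to 389 and 74.7 CPM in the same order. Erythroid markers went the other way in both clusters, at 6271 and 15875 CPM in cluster 0 and 173 and 2321 CPM in cluster 6. Lgmn stood at over 1000 CPM in macrophage-like cells, and the part of any of these cell kinds in its ratio was not tested.

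Lamp1 in cluster 6 had 482 CPM in mutant and 213 CPM in control cells, a ratio of 2.26 (2.09 to 2.45) on 2334 mutant and 867 control counts. This was the best counted of the lineage calls. In the same cluster Lamp2 stood near 1, at 80.6 CPM in mutant and 74.5 CPM in control cells, and Psap at 198 and 146 CPM in the same order. Lamp1 and Lgmn were the 2 of 28 measured members called higher in cluster 6, where 12.3% of all measured genes were, and 0 were called lower, where 2% were.

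In secretory ameloblast-like cluster 3, 2 of 26 measured members were called lower, where 2.85% of all measured genes were, and 0 of 26 higher, where 7.8% were. Cd63 had 39.4 CPM in mutant and 67.7 CPM in control cells, a ratio of 0.582 (0.508 to 0.667). Gusb had 9.17 CPM in mutant and 15.5 CPM in control cells, a ratio of 0.592 (0.442 to 0.790). In preameloblast-like cluster 4, led by Igfbpl1, Col22a1 and Vwde with haemoglobin genes among them, Rab5a was called higher at 1.57 (1.00 to 2.46), where 3.06% were, but not without the 1 cell of each library with the most counts, at 1.56 (0.981 to 2.51). Grn at 0.503 (0.328 to 0.755) and Lrp1 at 0.547 (0.342 to 0.855) were called lower there, where 4.95% were, and as a mean of CPM per cell the Lrp1 ratio was 0.9096. In cluster 0, Npc2 was called higher beside Lgmn, with 516 CPM in mutant and 304 CPM in control cells and a ratio of 1.70 (1.52 to 1.90), where 10.1% were. Atp6v0a1 was called lower in cluster 0 at 0.664 (0.455 to 0.955), where 6.29% were. In cluster 1, with 75 mutant and 495 control cells, Atp6v1b2 at 1.54 and Atp6v1h at 1.56 were called higher beside Lgmn, where 8.84% were. Without the 1 cell of each library with the most counts their ratios were 1.437 (0.938 to 2.13) and 1.435 (0.921 to 2.16), and neither was called. With cells thinned to 1000 UMIs the Atp6v1b2 ratio was 2.63, and as a mean of CPM per cell the Atp6v1h ratio was 2.503. In cluster 1, Atp6v0d1 was called lower at 0.588 (0.364 to 0.904), where 5.94% were. Across all 8 lineage clusters 10 members were never called. They were Lamp2, Ctsa, Hexa, Lipa, Glb1, Ap2m1, Cltc, Clta, Rab7 and Atp6v0c, and of these Lipa was measured in 1 lineage cluster and Atp6v0c in 0. The share of all genes never called is not given here, so this count has no background beside it.

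Outside the lineage 511 pairs of a member and a cluster were measured. Of these, 23 or 4.501% were called higher in the mutant, where 5.43% of all gene and cluster pairs were, and 13 or 2.54% lower, where 3.53% were. The shallow all-cells cluster 0 alone held 8 of the 23, out of 27 measured members, where 12.9% of all measured genes were called higher. Called lower were 0, where 1.91% were. There Lamp2 had 104 CPM in mutant and 48.7 CPM in control cells, a ratio of 2.14 (1.57 to 2.94), and Cd63 had 492 CPM in mutant and 262 CPM in control cells, a ratio of 1.88 (1.64 to 2.15). In macrophage-like cluster 4, where lysosomal genes were highest, 32 of 32 members were measured and 0 were called, where 3.23% of all measured genes were higher and 1.97% lower. The summed level of all 32 there was 14981 CPM in mutant and 14986 CPM in control cells, a ratio of 1.00 (0.992 to 1.01), and that of the 9 pump subunits was 1.15 (1.13 to 1.18). Cd63 was called higher in each of the endothelium-like clusters 8, 9 and 15, at 1.501, 1.53 and 1.52. In cluster 8 it had 62.5 CPM in mutant and 41.6 CPM in control cells, far below its level in all-cells cluster 3. Mesenchyme or fibroblast markers in cluster 8 summed to 261 CPM in mutant and 107 CPM in control cells, and pericyte or smooth muscle markers to 139 and 73.2 CPM in the same order, and their part in the Cd63 ratio was not tested.

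Genes of the same pathways that are not among the 32 were counted from lists, and their counts stand against the shares of all genes given above, namely 14.7% lower and 10.6% higher in cluster 7, 4.48% lower and 14% higher in cluster 2, and 1.81% lower and 15.6% higher in cluster 5. Of 7 measured further pump genes in cluster 7, 2 were called lower and 0 higher. Both were accessory subunits that help assemble the pump: Atp6ap1 had 69.7 CPM in mutant and 137 CPM in control cells, a ratio of 0.507, and Atp6ap2 had 129.9 CPM in mutant and 222 CPM in control cells, a ratio of 0.586. Atp6ap2 was called higher in cluster 2, at 228 CPM in mutant and 132 CPM in control cells, and in cluster 5, at 295 CPM in mutant and 169 CPM in control cells. Of 17 further hydrolases and activators measured in cluster 7, 6 were called lower, among them the cysteine protease gene Ctsl at 0.665 and the fucosidase gene Fuca1 at 0.534. Of 22 measured in cluster 2, 6 were called higher and 0 lower, with the ceramidase gene Asah1 at 1.65. Of 22 further coat, endosome and recycling genes measured in cluster 7, 2 were called lower and 1 higher. Of 11 autophagy genes, 2 were called lower and 0 higher. The transferrin receptor gene Tfrc, a standard cargo of clathrin uptake, was called higher in cluster 2, at 382 CPM in mutant and 177 CPM in control cells, and in cluster 5, at 131 and 76.2 CPM in the same order. It was called lower in cluster 0, at 122 CPM in mutant and 474 CPM in control cells. Map1lc3a, an autophagosome marker gene, was called lower over the whole lineage, at 249 CPM in mutant and 401 CPM in control cells, a ratio of 0.621 (0.602 to 0.641), and also outside it, at 0.644 in all-cells cluster 3 and 0.6096 in all-cells cluster 17.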

How the data were processed

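Single cells of 1 Memo1;K14CRE mutant and 1 control incisor sample were measured. The deposited matrix holds raw UMI counts per gene and cell for both libraries. Per the submitters' processing notes, Cell Ranger and Seurat 3 were used with mm10. The Cell Ranger version, annotation and cell filters are not given in the sources used here. The deposited cells had between 501 and 49967 UMIs. Library and cluster of each cell were taken from the authors' cell table.

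Counts were summed per cluster and library and scaled to CPM. Exact Poisson intervals of 95% and exact conditional intervals for ratios cover counting error only. A call needed 1.5-fold, an interval excluding 1, a mean of 10 CPM and 20 counts. A cluster was named from marker lists where at least 3 markers stood out and its leading genes did not go against the name. Doublets were not called, and free RNA was not removed. Alternatives used edgeR 4.0.16 TMM factors, DESeq2 1.42.0 size factors, other totals, cell limits, thinning and thresholds. Computation used Python 3.11.15, numpy 2.4.6, scipy 1.17.1 and R 4.3.3.

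The members and lists were chosen with earlier results of these data known. All 32 members could be named, and of other pathway genes up to 4 called genes per list and cluster that reached 50 CPM in either library, by the bound of the interval nearest to 1. Gene positions are from GENCODE M21 and promoters from RefSeq GRCm38.p6. A result for 1 further pathway gene is not reported here.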

Additional observations from a re-analysis of the deposited data

Results flagged for a closer look

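5 genes were called in opposite directions in different lineage clusters. The share of all measured genes called in both directions across these clusters is not given here. This count therefore has no background beside it and does not set these genes apart from others. With 1 mouse a group, the difference between clusters was not tested.

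3 V1 subunits of the pump were lower in maturation ameloblast-like cluster 7 and higher elsewhere. The mutant over control ratio of Atp6v1a was 0.644 in cluster 7, 1.89 in cluster 2 and 1.92 in cluster 5. That of Atp6v1b2 was 0.459 in cluster 7, 1.54 in cluster 1 and 1.96 in cluster 2, and the value of cluster 1 was 1.437 (0.938 to 2.13) and not called without the 1 cell of each library with the most counts. That of Atp6v1e1 was 0.5495 in cluster 7 and 1.56 in cluster 2, and the value of cluster 2 was not called with TMM or median-of-ratios scaling.

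Gusb had a ratio of 3.26 in cluster 7 and 0.592 in secretory ameloblast-like cluster 3. The value of cluster 7 rested on 18 mutant and 11 control counts and was 1.04 as a mean of CPM per cell, and that of cluster 3 ran from 0 to 0.656 across the alternatives. The endocytic receptor gene Lrp1 had a ratio of 1.68 in cluster 2 and 0.547 in preameloblast-like cluster 4, where it was 0.9096 as a mean of CPM per cell.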

How the results depend on the processing

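The ratios of the 5 pump subunits called in cluster 7 kept their direction under each alternative run, and the sum of the 9 subunits ran from 0.572 to 0.665 across the alternatives. Of 334 ratios under alternatives, 265 stayed within the 95% interval of the reported ratio, 64 lay outside it without a called value changing sides of 1, and 5 reversed. With cells thinned to 1000 UMIs, the ratios of Lgmn in cluster 1 (0.737), Tfeb in cluster 2 (0.358), Atp6v1h in cluster 2 (0.954) and Cd63 in cluster 7 (1.08) reversed, and as a mean of CPM per cell Npc1 in cluster 7 (1.07) did. The cause was not tested.

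Thinning left 0 members higher and 3 lower in cluster 7, of 15 measured, so fewer genes could be called. It left 1 lower in cluster 2 and over the whole lineage, 0 higher in cluster 5, and 4 higher and 2 lower in the other 5 lineage clusters. With TMM, 4 were higher in cluster 2, 1 in cluster 5, 5 in the other lineage clusters with 10 lower, and 15 outside the lineage. With median-of-ratios factors, 4 were higher in cluster 2, 1 in cluster 5 and 14 outside, and 10 were lower in the other lineage clusters. Totals without abundant transcripts left 1 higher in cluster 5. Stricter cell limits gave 2 lower over the lineage, and 5 higher and 10 lower in the other lineage clusters. Mean CPM per cell gave 19 higher in the other lineage clusters and 24 lower outside. That setting had no interval and called on 1.5-fold alone, so its counts follow a looser rule than the others. Without the 5% deepest cells, 0 were higher in cluster 7. At 2-fold, 0 were higher over the lineage and in clusters 2 and 5, 3 were lower in cluster 7, 3 higher and 0 lower in the other lineage clusters, and 4 higher and 5 lower outside. The shares of all genes given above belong to the main setting. Shares under these alternatives are not given here, so the counts of this paragraph have no background beside them.

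Without the 1 cell of each library with the most counts of a gene, all 37 lineage calls kept their direction and 4 missed the threshold, those of Atp6v1b2 and Atp6v1h in cluster 1, Rab5a in cluster 4 and Psap in cluster 5. Removing the mutant cell with the most Odam, and summing the pump subunits, were chosen after seeing the data. Taking all cells of an all-cells cluster changed nothing outside the lineage, since those clusters hold no lineage cells. No paired analysis was possible because each group has 1 library. Low counts left Tfeb measured in 3 lineage clusters and Lipa in 1.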
